A study of Mus musculus with 6 samples.

Results

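DNA methylation in mammals is laid down and copied by a small set of enzymes and their helpers, and 9 of these genes were examined here in RNA-seq of Dnmt3b+/- PTCL. They are the DNA methyltransferase genes Dnmt1, Dnmt3a, Dnmt3b and Dnmt3l, the maintenance factor Uhrf1, and Hells, Zbtb24, Cdca7 and Cdca7l. The 9 were taken by gene symbol from a table of 34245 genes, and all 9 were found once. The tumors were 3 independent peripheral T-cell lymphomas and are called tumors 1, 2 and 3. They were taken from lymph nodes when Dnmt3b+/- mice of the FVB strain (FVB/N in the authors' methods) had become terminally sick. Dnmt3b+/- mice carry a germline knockout of a single Dnmt3b allele, derived from a floxed gene, in every cell of the body. The age of the mice is not given in the sources used here. The series also labels 3 samples of whole-genome bisulfite sequencing, from Dnmt3b+/- PTCL and Dnmt3a-/- PTCL, which were not analysed here. With a single group of 3 tumors there was no comparison between genotypes and no test, so all values describe these 3 tumors.

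The values are FPKM, the fragments on a gene per kilobase of its merged exons, scaled to the library's sequencing depth, on a linear scale. FPKM is per length, so levels can be set side by side between genes of a tumor, but the order of some genes turns with the length used. The most and least abundant genes of a list are named by mean FPKM over the 3 tumors, and another gene may lead in a single tumor. Whole reads were recovered from the FPKM, with the libraries scaled to depths of 30726570, 18969988 and 20770928 reads in tumors 1, 2 and 3. Intervals in brackets are exact 95% Poisson intervals on those reads, and intervals and floors cover counting error only, since the reads carried no molecular identifiers. Whether reads or read pairs were counted is not stated in the sources used here. If both reads of a pair were counted, the intervals are too narrow, and some that narrowly miss each other may overlap. The RNA came from whole tumor tissue, so fewer cells of a type and less RNA per cell cannot be told apart.

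The labelled tissue was checked against T-cell markers, which were abundant in each tumor. The summed FPKM of 11 T-cell genes reached 1353, 1073 and 1429 in tumors 1, 2 and 3. Cd8b1, a chain of the CD8 coreceptor, was the most abundant of them by mean with 435, 166 and 443 FPKM. Cd4 was the least abundant with 28.4, 4.28 and 8.22 FPKM. Genes of immature thymocytes were mixed. Of 6, Rag2 and Ptcra had no read in any tumor and Rag1, a recombinase of T-cell receptor genes, had 2 reads in tumor 1 and none elsewhere. Themis, a signaling protein of developing thymocytes that mature T-cells also use, was the most abundant of these 6 by mean with 19.6, 1.77 and 9.94 FPKM. Cd1d1 had 4.95, 2.52 and 5.30 FPKM, and Dntt, which adds nucleotides at T-cell receptor junctions in thymocytes, had 10.3, 0.0743 and 0.747 FPKM. Both were named after their values were seen.

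Methylation of cytosine in CpG dinucleotides is established by the de novo enzymes Dnmt3a and Dnmt3b. Dnmt3l has no catalytic activity of its own and stimulates both in germ cells and early embryos. After replication Uhrf1 binds hemimethylated CpG and brings in Dnmt1, which copies the pattern to the new strand. Immunodeficiency, centromeric instability and facial anomalies (ICF) syndrome is caused by mutations in human DNMT3B, ZBTB24, CDCA7 or HELLS. Zbtb24 is a zinc-finger transcription factor that is known to bind the Cdca7 promoter. Cdca7 brings the chromatin remodeler Hells to chromatin, and Cdca7l is a paralog of Cdca7.

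The promoters of the 9 genes were searched for words of known factors, since E2F factors are known to act on genes of S phase and ZBTB24 on Cdca7. All 9 genes had at least 1 promoter window in RefSeq (GRCm38.p6), 16 windows in all, each from 250 bases before to 50 bases after a RefSeq gene start. The E2F words TTTGGCGC, TTTCCCGC, TTTCGCGC and TTTGCCGC were searched on both strands. At least 1 of them was held by 744 of all 32851 promoter windows (2.26%). The word CAGGACCT, the core of the ZBTB24 motif, was searched on both strands and was held by 653 windows (1.99%). The 2 motifs share no bases in the windows of the 9 genes. An E2F word was present in 4 of the 16 windows, those of 4 of the 9 genes, Dnmt1, Uhrf1, Hells and Cdca7. Each E2F word itself holds a CpG, and these 4 windows held 26 to 34 CpG, against a median of 7 over all windows. The share among windows equally rich in CpG was not computed. No E2F word was found in the windows of Dnmt3a, Dnmt3b, Dnmt3l, Zbtb24 and Cdca7l. The ZBTB24 word was found in the Cdca7 window and in none of the others. A match is a description of these letters and not a measured binding site.

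Parts of 4 windows are printed to show where the words lie in Uhrf1, Hells and Cdca7 and to show the promoter of Dnmt3b, the gene knocked out on a single allele, which holds none of them. For Uhrf1 the window of its 2 that holds the word is shown. All 4 are on the plus strand of GRCm38.p6, run from the first base of the window and end with the first 25 bases of an annotated exon. For Uhrf1 this exon starts at base 56304313, downstream of the gene start at 56303321. They lie at chr17:56304063-56304337 (Uhrf1), chr19:38930740-38930939 (Hells), chr2:72475969-72476183 (Cdca7) and chr2:153649199-153649473 (Dnmt3b). Capitals mark the E2F words and, in Cdca7, the ZBTB24 word CAGGACCT, which stands before the E2F word GCGGGAAA (the reverse complement of TTTCCCGC).
Uhrf1: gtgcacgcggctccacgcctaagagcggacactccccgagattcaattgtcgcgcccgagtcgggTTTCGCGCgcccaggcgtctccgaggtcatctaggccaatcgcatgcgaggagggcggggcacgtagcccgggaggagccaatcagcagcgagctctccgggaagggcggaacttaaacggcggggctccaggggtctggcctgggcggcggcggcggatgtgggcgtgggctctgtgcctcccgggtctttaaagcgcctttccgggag
Hells: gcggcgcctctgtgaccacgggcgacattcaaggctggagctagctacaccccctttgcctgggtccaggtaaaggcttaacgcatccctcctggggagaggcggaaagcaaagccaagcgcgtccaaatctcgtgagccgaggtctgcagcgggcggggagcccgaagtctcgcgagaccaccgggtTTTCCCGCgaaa
Cdca7: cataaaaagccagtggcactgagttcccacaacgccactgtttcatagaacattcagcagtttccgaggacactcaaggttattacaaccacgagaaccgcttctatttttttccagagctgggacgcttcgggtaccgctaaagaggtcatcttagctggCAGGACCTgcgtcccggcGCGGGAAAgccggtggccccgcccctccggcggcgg
Dnmt3b: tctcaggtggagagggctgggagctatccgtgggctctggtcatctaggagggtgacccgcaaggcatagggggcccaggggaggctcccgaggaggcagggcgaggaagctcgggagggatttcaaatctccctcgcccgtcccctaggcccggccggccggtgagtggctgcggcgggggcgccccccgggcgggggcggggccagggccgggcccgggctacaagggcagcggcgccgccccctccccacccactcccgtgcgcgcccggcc

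In Cdca7 the ZBTB24 word starts 89 bases before the RefSeq gene start and the E2F word 71 bases before it. In Hells the E2F word starts 62 bases before the RefSeq start but lies inside the first annotated exon, which begins farther upstream, and in Uhrf1 it starts 185 bases before the RefSeq start of the window shown. Dnmt1 has 3 windows, and its 2 E2F words both lie in the window at chr9:20952574-20952873 on the minus strand. That window also overlaps coding bases of another annotated Dnmt1 transcript. At least 1 window of each gene but Dnmt3l held 18 or more CpG. Over all windows the median was 7 CpG, against 30 in Dnmt3b, 34 in Hells, 26 in Cdca7, 18 in Zbtb24 and 46 in Cdca7l. The 3 windows of Dnmt3l held 6, 4 and 3 CpG.

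The maintenance pair had the highest levels. Dnmt1 (ENSMUSG00000004099, chromosome 9 of mm10, 20907209 to 20959888, minus strand) had 31.7 FPKM in tumor 1 (31.0 to 32.4), 33.5 in tumor 2 (32.5 to 34.4) and 23.6 in tumor 3 (22.8 to 24.3). The mean was 29.6 ± 5.28 FPKM (SD, n = 3), above that of 97.0% of all genes in the table. Uhrf1 (ENSMUSG00000001228, chromosome 17, 56303321 to 56323486, plus strand) had 24.9 FPKM in tumor 1 (24.1 to 25.8), 26.2 in tumor 2 (25.1 to 27.3) and 17.5 in tumor 3 (16.6 to 18.4). Its mean was 22.9 ± 4.69 FPKM (SD, n = 3). For both genes tumor 3 was the lowest, and the interval of tumor 3 lay below those of the other tumors. Tumor 2 was the highest for both in the deposited FPKM, but tumor 1 was the highest for both when each tumor was rescaled to a sum of 1000000.

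The Uhrf1 level was a near-constant share of the Dnmt1 level. The ratio of Uhrf1 to Dnmt1 FPKM was 0.787 (95% Clopper-Pearson interval on the reads 0.755 to 0.820), 0.782 (0.742 to 0.823) and 0.743 (0.70 to 0.789) in tumors 1, 2 and 3. The 3 intervals overlap. A ratio within a library does not depend on the scaling between libraries. In the pattern over the 3 tumors, measured as the Euclidean distance between log2 FPKM centred on the gene's own mean, Uhrf1 lay 0.06 from Dnmt1. It was the 69th nearest of 11189 other gene symbols with a mean of at least 1 FPKM, and Dnmt1 was the 39th nearest to Uhrf1. With 3 tumors many genes share a pattern, and 166 genes lay within 0.1 of Dnmt1. The 3 nearest were Pidd1, Dnaaf2 and Deaf1, at distances of 0.01, 0.02 and 0.02.

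**Figure D1:**
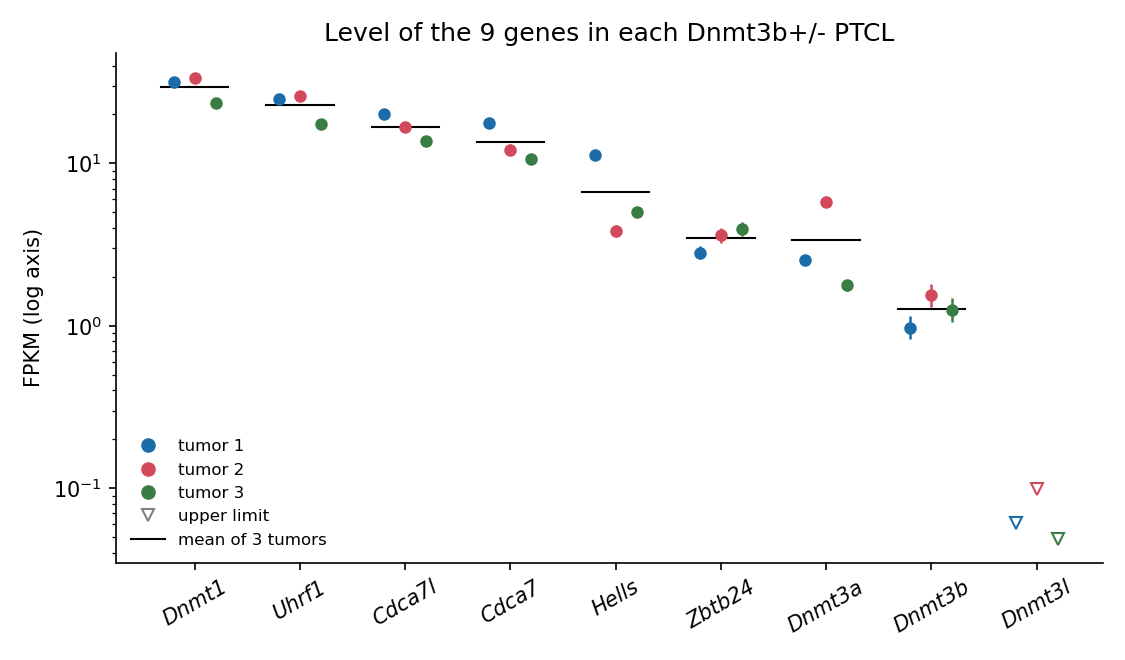
FPKM (log axis) of the 9 genes in tumors 1, 2 and 3, ordered by mean. Bars are exact 95% Poisson intervals on the recovered reads, often smaller than the point, lines are means of 3 tumors, and open triangles are upper limits of Dnmt3l, the upper end of the interval for 1 read and the FPKM of 3 reads for none. The means run from 29.6 FPKM for Dnmt1 to 1.26 FPKM for Dnmt3b.

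The de novo enzymes were expressed at lower levels than Dnmt1. Dnmt3a (ENSMUSG00000020661, chromosome 12, 3806007 to 3914443, plus strand) had 2.52 FPKM in tumor 1 (2.39 to 2.66), 5.76 in tumor 2 (5.50 to 6.03) and 1.77 in tumor 3 (1.63 to 1.92). These values rest on 1290, 1818 and 612 reads, and the mean was 3.35 ± 2.12 FPKM (SD, n = 3). Tumor 2 stood above the others and the 3 intervals do not overlap. Without tumor 2 the mean was 2.15 FPKM. By the length of the transcript with the longest coding sequence, chosen after seeing the data, the mean over the 3 tumors was 5.76 FPKM. Dnmt3b (ENSMUSG00000027478, chromosome 2, 153649450 to 153687730, plus strand) had 0.975 FPKM in tumor 1 (0.827 to 1.14), 1.55 in tumor 2 (1.31 to 1.82) and 1.25 in tumor 3 (1.05 to 1.49). Only tumors 1 and 2 had intervals that do not overlap. Since FPKM sums reads over every exon of a gene, reads of the wild-type and the knockout allele of Dnmt3b cannot be told apart.

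Dnmt3a exceeded Dnmt3b in each tumor, but by an amount that differed among tumors. The Dnmt3a to Dnmt3b ratio of FPKM reached 3.72 in tumor 2 (3.15 to 4.42), against 2.59 in tumor 1 (2.19 to 3.08) and 1.41 in tumor 3 (1.17 to 1.72). Its mean was 2.57 ± 1.15 (SD, n = 3), and the 3 intervals do not overlap. This ratio depends on the length taken for Dnmt3a. The deposited FPKM divide by the merged exons of all 18 annotated Dnmt3a transcripts, 16642 bases, of which the transcript with the longest coding sequence covers 9685. For Dnmt3b the corresponding lengths are 5106 and 4318 bases. With reads divided by the length of that transcript alone, an alternative chosen after seeing the data, the ratio was 3.76, 5.40 and 2.05 in tumors 1, 2 and 3. The direction was the same by either length in all 3 tumors.

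Dnmt1 exceeded both de novo enzymes in each tumor. The ratio of Dnmt1 to Dnmt3a FPKM was 12.6 (11.8 to 13.3), 5.81 (5.50 to 6.14) and 13.3 (12.2 to 14.5) in tumors 1, 2 and 3. Tumor 2 stood apart in this ratio, and the intervals of tumors 1 and 3 overlap. The ratio of Dnmt1 to Dnmt3b FPKM was 32.5, 21.6 and 18.8, with tumor 1 the highest.

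The cofactor of the de novo enzymes was near absent. Dnmt3l (ENSMUSG00000000730, chromosome 10, 78041947 to 78063622, plus strand) had 1 read in each of tumors 1 and 2 and none in tumor 3. The exact intervals on 1 read reach up to 0.0607 and 0.0983 FPKM in tumors 1 and 2, and the count of 0 in tumor 3 allows up to 3 reads, or 0.0483 FPKM. Dnmt3c, a rodent paralog of Dnmt3b that methylates young retrotransposons in the male germline, had no read in any tumor, which allows up to 0.0439, 0.0711 and 0.0650 FPKM. Markers of pluripotent and germ cells were likewise low. Of 8 such genes 5 had no read in any tumor, Ddx4 among them, and the most abundant, the synaptonemal complex gene Sycp3, had 0.180, 0.417 and 0.343 FPKM. Lack of a read was common, with 42.7%, 46.4% and 48.9% of all genes with an exon length having none in tumors 1, 2 and 3. The share of all genes without a read in any tumor was not computed.

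Dnmt3c lies beside Dnmt3b on chromosome 2, from 153696652 to 153729907, and resembles it in sequence. Of the 4169 windows of 150 bases in the longest-coding Dnmt3b transcript, 138 (3.31%) are also present in Dnmt3c transcripts. The authors discarded reads of low mapping quality, so the levels of both genes are uncertain to the extent of reads from those stretches. For Uhrf1, 66 of 3437 windows (1.92%) are shared with Gm5648. For the other 7 genes no window is shared with another gene.

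The ICF partner genes and the paralog Cdca7l ranged from Zbtb24 at the low end to Cdca7l at the high end. Cdca7 (ENSMUSG00000055612, chromosome 2, 72476159 to 72486893, plus strand) had 17.8 FPKM in tumor 1 (17.0 to 18.7), 12.2 in tumor 2 (11.3 to 13.1) and 10.7 in tumor 3 (9.90 to 11.5). Its mean was 13.6 ± 3.77 FPKM (SD, n = 3). Cdca7l (ENSMUSG00000021175, chromosome 12, 117804289 to 117878706, plus strand) had 20.1 FPKM in tumor 1 (19.2 to 21), 16.6 in tumor 2 (15.6 to 17.7) and 13.7 in tumor 3 (12.8 to 14.6). Its mean was 16.8 ± 3.21 FPKM (SD, n = 3). Both paralogs were highest in tumor 1 and lowest in tumor 3, under either rescaling as well. Cdca7 was below Cdca7l in each tumor by deposited FPKM, with ratios of 0.886 (0.830 to 0.945), 0.731 (0.664 to 0.804) and 0.778 (0.705 to 0.859). By the length of a single transcript, chosen after seeing the data, the ratios were 1.06, 0.876 and 0.933, so in tumor 1 the order turns with the length used.

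Hells differed more among the tumors. Hells (ENSMUSG00000025001, chromosome 19, 38930915 to 38971051, plus strand) had 11.2 FPKM in tumor 1 (10.8 to 11.7), 3.83 in tumor 2 (3.51 to 4.17) and 5.04 in tumor 3 (4.69 to 5.42). The mean was 6.70 ± 3.96 FPKM (SD, n = 3), and 4.44 FPKM without tumor 1. The ratio of Hells to Cdca7 FPKM was 0.629, 0.315 and 0.473 in tumors 1, 2 and 3. Hells was thus not in a fixed ratio to the gene of the partner that brings it to chromatin, and the 3 intervals of this ratio (0.592 to 0.670, 0.281 to 0.352 and 0.426 to 0.524) do not overlap. The ratio of Hells to Dnmt1 FPKM was 0.354, 0.114 and 0.214, again lowest in tumor 2.

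Zbtb24 (ENSMUSG00000019826, chromosome 10, 41450383 to 41465574, plus strand) had 2.82 FPKM in tumor 1 (2.56 to 3.10), 3.62 in tumor 2 (3.25 to 4.02) and 3.95 in tumor 3 (3.58 to 4.34). The mean was 3.46 ± 0.580 FPKM (SD, n = 3), and 6.24 FPKM by the length of a single transcript, chosen after seeing the data. Of the 8 genes with a mean of at least 1 FPKM, Zbtb24 was the only one highest in tumor 3. Cdca7, whose promoter holds the ZBTB24 word printed above, was highest in tumor 1, where Zbtb24 was lowest. The intervals of tumors 2 and 3 overlap for both genes. The ratio of Cdca7 to Zbtb24 FPKM was 6.32, 3.36 and 2.70 in tumors 1, 2 and 3.

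**Figure D2:**
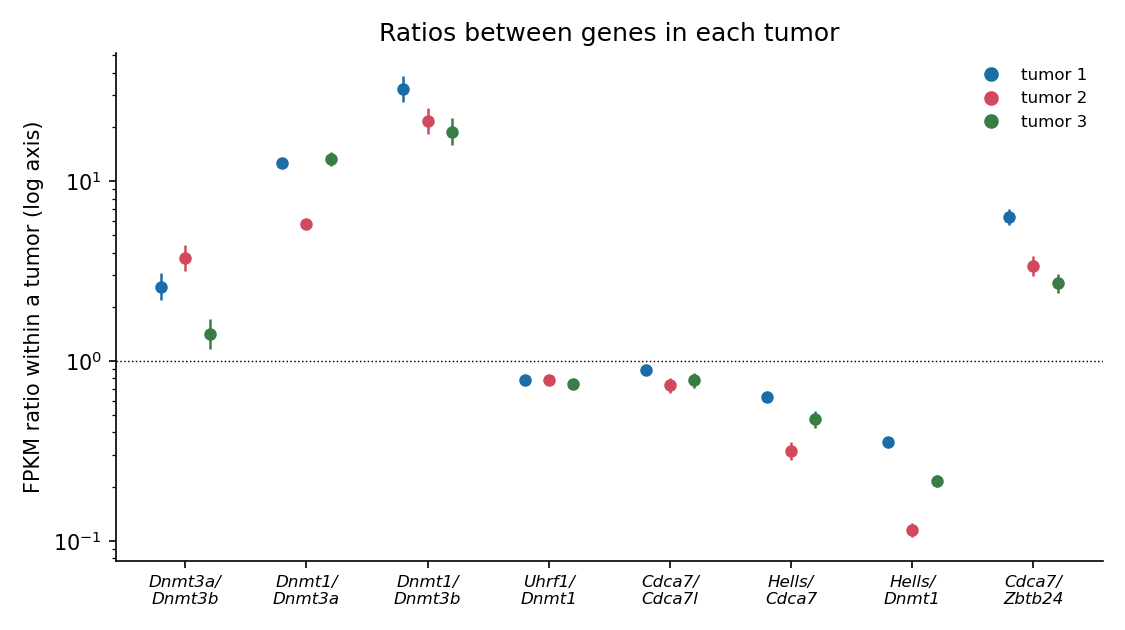
Ratio of FPKM (log axis) between pairs of genes within tumors 1, 2 and 3, with 95% Clopper-Pearson intervals on the reads. The Uhrf1 to Dnmt1 ratio stays between 0.743 and 0.787, while the Hells to Dnmt1 ratio runs from 0.114 to 0.354.

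By mean FPKM the order was Dnmt1, Uhrf1, Cdca7l, Cdca7, Hells, Zbtb24, Dnmt3a, Dnmt3b and, near 0, Dnmt3l. Of the 7 pairs of neighbours from Dnmt1 to Dnmt3b, the ranges over the 3 tumors overlap in all but Dnmt3a and Dnmt3b. Within a tumor 6 of these 7 pairs kept the order in all 3 tumors, but 4 of the 7 did with reads divided by the length of a single transcript, by which Zbtb24 exceeded Hells in tumors 2 and 3 and Cdca7 exceeded Cdca7l in tumor 1. The exception in the deposited FPKM was Zbtb24 and Dnmt3a, with means that differ by a factor of 1.03 and a reversed order in tumor 2. In tumor 2 Dnmt3a also exceeded Hells. A mean above 1 FPKM was reached by 8 of the 9 genes, all but Dnmt3l, against 32.7% of all genes in the table with a mean of at least 1 FPKM.

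The spread among tumors was set beside that of all genes. Of the 8 genes with a mean of at least 1 FPKM, 2 had a highest tumor at least 2 times the lowest, Dnmt3a (3.25-fold) and Hells (2.93-fold). Of 11197 genes in the table with a mean of at least 1 FPKM, 34.4% had such a spread. The median fold was 1.54 over the 8 genes and 1.68 over the 11197. Each of the 2 spreads rests on a single tumor. Without tumor 2 the fold of Dnmt3a was 1.42, and without tumor 1 the fold of Hells was 1.32. The folds of Dnmt3a and Hells were larger than those of 85.3% and 82.9% of all genes, and the fold of Zbtb24, 1.40, was larger than that of 28.7%.

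Among the 8 genes, Hells, Cdca7 and Cdca7l were highest in tumor 1, Dnmt1, Dnmt3a, Dnmt3b and Uhrf1 in tumor 2, and Zbtb24 in tumor 3. Over all 11197 genes, tumor 1 held the highest value for 50.6%, tumor 2 for 33.7% and tumor 3 for 15.7%. The share in tumor 1 was 60.5% with each tumor rescaled to a sum of 1000000 and 39.0% with median-of-ratios factors, and the share spread at least 2-fold was 39.4% and 32.5%. Rescaling each tumor to a sum of 1000000 moved Dnmt1 and Uhrf1 to tumor 1, and median-of-ratios factors moved none of the 8. Those factors, by which the values are divided, are 0.12 in tumor 1, -0.04 in tumor 2 and -0.07 in tumor 3 on the log2 scale. After this division the folds of Dnmt3a and Hells were 3.18 and 2.63.

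**Figure D3:**
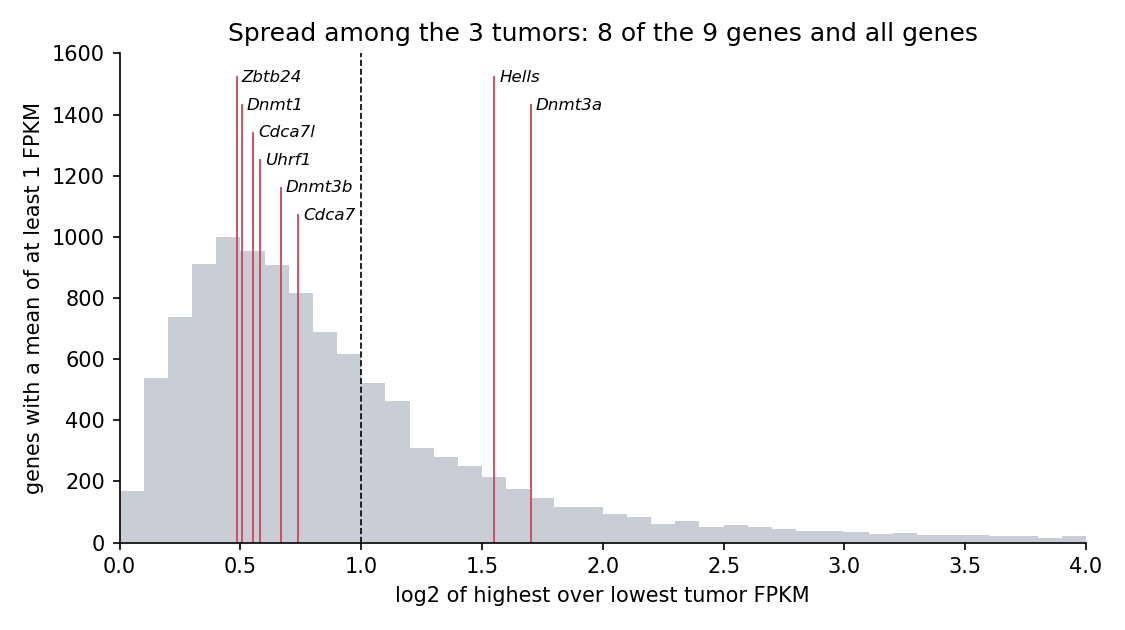
Histogram of the log2 ratio of the highest to the lowest tumor FPKM for genes with a mean of at least 1 FPKM, with 8 of the 9 genes as red lines and a dashed line at a 2-fold spread. Dnmt3a and Hells lie beyond 2-fold, and 425 genes beyond 16-fold are not drawn.

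The genes nearest in pattern to Dnmt3a were Pcgf2, a Polycomb component, with 1.19, 2.63 and 0.819 FPKM, the cytokine receptor gene Il12rb1 with 7.27, 17.3 and 5.17, and the cytoskeletal linker Plec with 15.7, 35.4 and 11.5. Their distances were 0.03, 0.05 and 0.06, and 12 genes lay within 0.1 of Dnmt3a. For Dnmt3b the nearest were Nat8f1, C8g and the mitochondrial thymidine kinase Tk2, at distances of 0.01 each, and 135 genes lay within 0.1. For Cdca7 they were the RNA polymerase III factor Brf1, the RNA-binding protein Celf2 and Ulk4, also at distances of 0.01 each, with 114 genes within 0.1. Cdca7l was the 585th nearest to Cdca7, at a distance of 0.20. Dnmt3a and Dnmt3b were farther apart, at 1.00, and Dnmt3a and Hells farthest of all pairs, at 2.03. These distances describe 3 tumors and carry no test.

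Partners of maintenance methylation were expressed throughout. All 11 genes of this list had a mean of at least 1 FPKM, against 32.7% of all genes in the table. The most abundant was Pcna, the replication clamp that Dnmt1 binds, with 88.0, 55.9 and 63.6 FPKM, and the least abundant was Dmap1, a corepressor that binds Dnmt1, with 3.79, 4.22 and 3.69 FPKM. Uhrf2, the paralog of Uhrf1, had 6.33, 4.66 and 4.90 FPKM, below Uhrf1 in each tumor. The list was highest in tumor 1 for 7 genes and in tumor 2 for 4, or 9 and 2 with each tumor rescaled to a sum of 1000000, when 50.6% and 60.5% of all genes are highest in tumor 1. The deubiquitinase Usp7 (2.03-fold) and the deacetylase Hdac1 (2.13-fold) had a spread of at least 2-fold, 2 of 11 against 34.4% of all genes, and the count was 0 with median-of-ratios factors (32.5%) and 5 with the rescaled sum (39.4%).

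Of 12 partners and regulators of de novo methylation, 9 had a mean of at least 1 FPKM, against 32.7% of all genes in the table. Trim28, a corepressor of retrotransposons, was the most abundant by mean with 31.3, 34.1 and 29.4 FPKM, and Dnmt3c and Dppa3 had no read in any tumor. Trdmt1, a DNA methyltransferase homolog that methylates transfer RNA, had 2.05, 0.784 and 0.703 FPKM. A spread of at least 2-fold was found for 4 of the 9, Ehmt2 (2.16-fold), Smarca5 (2.40-fold), Mphosph8 (2.36-fold) and Trdmt1 (2.92-fold), against 34.4% of all genes, and for 5 with the rescaled sum, against 39.4%. Ehmt2, a histone H3 lysine methyltransferase, was highest in tumor 2 with 16.6, 35.9 and 18.6 FPKM, the tumor in which Dnmt3a was highest. The list as a whole was highest in tumor 1 for 7 of the 9 genes, against 50.6% of all genes, but for 4 with median-of-ratios factors (39.0%) and 8 with the rescaled sum (60.5%).

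Most proliferation genes were highest in tumor 1, a pattern that some of the 9 genes shared and others did not. Of 23 S-phase genes, 18 had their highest value in tumor 1, 4 had it in tumor 2 (Mcm2, Cdt1, Gins2 and E2f1) and Pola1 had it in tumor 3. The count in tumor 1 was 22 with each tumor rescaled to a sum of 1000000 and 16 with median-of-ratios factors, where the shares of all genes are 50.6% as deposited, 60.5% and 39.0%. A spread of at least 2-fold was found for 6 of the 23 genes, or 5 with median-of-ratios factors and 9 with the rescaled sum. The shares of all genes are 34.4%, 32.5% and 39.4%. The median fold of the S-phase genes was 1.56, against 1.68 over all genes. Their median level was 11, 7.37 and 6.94 FPKM in tumors 1, 2 and 3. Mcm4, a subunit of the replicative helicase, was the most abundant with 42.7, 29.6 and 33.7 FPKM, and Ccne2, a G1/S cyclin, the least with 6.03, 1.45 and 2.84. All 15 mitotic genes were highest in tumor 1, or 14 of them with median-of-ratios factors, and 14 of them, all but Cdk1, spread at least 2-fold, against 13 with those factors and 15 with the rescaled sum. The shares of all genes spread that far are 34.4%, 32.5% and 39.4%, and those highest in tumor 1 are as for the S-phase list. The mitotic median was 12.7, 6.79 and 4.0 FPKM. Mki67, the proliferation antigen Ki-67, was by mean the most abundant with 38.7, 30.4 and 12.0 FPKM, and the checkpoint kinase gene Bub1 the least with 6.83, 3.01 and 1.95. Against the gene's own mean log2 FPKM, the median mitotic gene stood at 0.72 in tumor 1, 0.02 in tumor 2 and -0.80 in tumor 3, while the median of the 8 genes stood at 0.13, 0.14 and -0.29.

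Relative to S-phase genes the paralogs Cdca7 and Cdca7l were the steadiest. Divided by the geometric mean FPKM of the 23 S-phase genes in the same tumor, Cdca7 was 1.41, 1.33 and 1.26 and Cdca7l was 1.59, 1.82 and 1.61, folds of 1.12 and 1.15 between highest and lowest tumor. Dnmt1 was 2.50, 3.66 and 2.77, a fold of 1.46, and Uhrf1 also had a fold of 1.45. Dnmt3a (3.17-fold), Dnmt3b (2.20-fold), Hells (2.11-fold) and Zbtb24 (2.09-fold) were the 4 of the 8 genes with a spread of at least 2-fold on this scale, against 36.9% of all genes. Divided by the geometric mean of the mitotic genes, which itself differs among tumors, 7 of the 8 spread at least 2-fold, as did 85.7% of all genes. This division was chosen after seeing the data, and whether the proportion of cycling cells differed among the tumors was not tested.

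**Figure D4:**
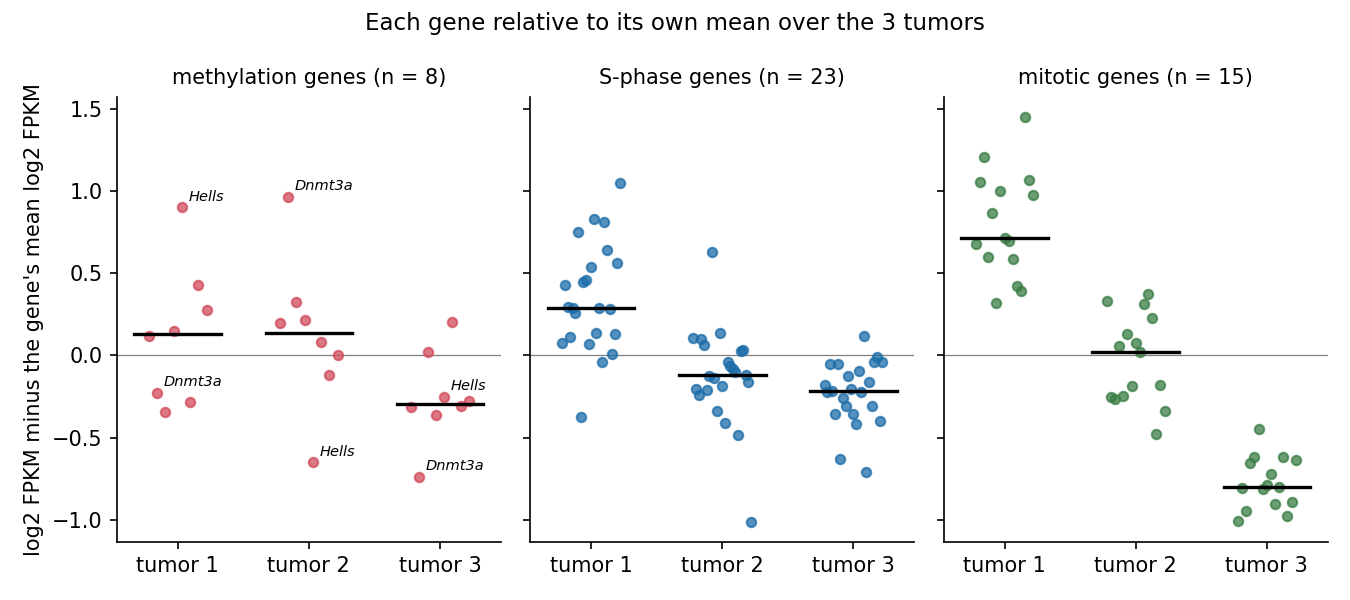
Log2 FPKM of each gene minus its mean over the 3 tumors, for 8 of the 9 genes, 23 S-phase genes and 15 mitotic genes, with the median as a black line. As deposited, mitotic genes lie highest in tumor 1 and lowest in tumor 3, with medians of 0.72 and -0.80, while Dnmt3a is highest in tumor 2.

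Markers of other cell types differed among the tumors that differ in Dnmt3a and Hells. In tumor 2, where Dnmt3a was highest, all 8 pancreatic acinar genes were at their highest, against 33.7% of all genes. Their summed FPKM was 87.0, 440 and 0.657 in tumors 1, 2 and 3. The most abundant was the chymotrypsinogen gene Ctrb1 with 33.9 and 198 FPKM in tumors 1 and 2 and no read in tumor 3, and the least was Cpb1 with 2.50 and 8.40 FPKM and 1 read in tumor 3. Of the 5 stromal genes among 7 with a mean of at least 1 FPKM, 3 were highest in tumor 2 and 2 in tumor 1. The shares of all genes are 33.7% and 50.6%. The stromal list summed to 23.2, 54.4 and 5.34 FPKM. Its most abundant gene by mean, the endothelial Pecam1, had 12.2, 10.9 and 4.86 FPKM, and its least abundant, the pericyte receptor Pdgfrb, 0.380 and 1.59 FPKM with 1 read in tumor 3. The part of these cells in the Dnmt3a level was not tested.

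In tumor 1, where Hells was highest, most myeloid and erythroid genes were highest. Of 6 myeloid genes among 8 with a mean of at least 1 FPKM, 5 were highest in tumor 1, against 50.6% of all genes. The list summed to 277, 89.9 and 37.6 FPKM. Lyz2, the lysozyme of macrophages and neutrophils, led by mean with 215, 33.1 and 20.3 FPKM, Elane had no read in any tumor and Mpo had a single read, in tumor 1. The 3 erythroid genes with a mean of at least 1 FPKM were highest in tumor 1, against 50.6% of all genes, led by the globin gene Hba-a1 with 92.3, 19.6 and 1.90 FPKM. Of the 3 immature thymocyte genes with such a mean, Themis and Dntt were highest in tumor 1 and Cd1d1 in tumor 3. With the rescaled sum all 3 were highest in tumor 1. As deposited all 3 were lowest in tumor 2, as was Hells. Of the 11197 genes with a mean of at least 1 FPKM, 4286 were lowest in tumor 2. B-cell genes were highest in tumor 3 for 6 of 7 genes with a mean of at least 1 FPKM, against 15.7% of all genes. Their sums were 64.2, 50.7 and 122 FPKM. Cd79a, a chain of the B-cell receptor complex, led by mean with 23.1, 7.31 and 49.0 FPKM, and the B-lineage factor Ebf1 was lowest with 0.400, 0.0919 and 0.493. The tumor counts of the acinar, stromal, myeloid, erythroid and B-cell lists were the same under both rescalings. Of all genes, 60.5%, 30.7% and 8.7% were highest in tumors 1, 2 and 3 with the rescaled sum. With median-of-ratios factors these shares were 39.0%, 37.3% and 23.7%. The part of these cell types in the Hells and Zbtb24 levels was not tested. Of 10 housekeeping genes only Gapdh spread at least 2-fold, 2.20-fold, against 34.4% of all genes, though 3 did with median-of-ratios factors, against 32.5%. The most and least abundant of the 10 were B2m with 2327, 1573 and 1781 FPKM and Tbp with 3.67, 2.27 and 2.82.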

How the data were processed

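RNA-seq was read paired-end at 150 bp from 3 Dnmt3b+/- PTCL. The authors aligned trimmed reads to mm10 (GRCm38) with STAR, discarded reads under a mapping quality of 50 and quantified genes with the RNA-seq pipeline of SeqMonk, with versions not given in the sources used here. The deposited values are FPKM, a scaled unit, and no count model was fitted to them.

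In these values a gene with no read is listed at the FPKM of 0.9 read. That gave the depth of each library, and reads per gene were computed with merged exon lengths of GENCODE M21. All values of the 9 genes came out whole within 0.02 of a read, or as 0.9. Of 34125 genes with an exon length, 92.5%, 92.6% and 92.6% did so in tumors 1, 2 and 3.

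No test was run. Genes were named by rule: the 9 genes, the most and least abundant gene of each list, paralogs, and the 3 genes nearest in pattern to Dnmt1, Dnmt3a, Dnmt3b and Cdca7. The 9 genes and the lists were chosen with earlier results of these data known, and other genes named for a count of 5 or fewer were chosen after their values were seen. Alternatives were a sum of 1000000, median-of-ratios factors over 9716 genes above 1 FPKM in every tumor, pseudocounts of 0.1 and 1 FPKM, other thresholds and each tumor left out. Steps were tested on simulated data. Software was SciPy 1.17.1, NumPy 2.4.6, matplotlib 3.10.9 and pandas 2.3.3 under Python 3.11.15.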

Additional observations from a re-analysis of the deposited data

How the results depend on the processing

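Of 73 alternative values, 53 stayed within the spread of the tumors or within 1.5 times the count. Part of this tally was fixed in advance, so it does not measure how robust the values are. Leaving out 1 of 3 tumors cannot move a mean beyond the spread of the tumors. The rescaled sum multiplies every value by 4.47 to 5.30, which moves every mean. Median-of-ratios factors moved none of 10. Rescaling each tumor to a sum of 1000000 raised the mean to 145 for Dnmt1, 112 for Uhrf1, 82.8 for Cdca7l, 67.0 for Cdca7, 33.5 for Hells, 16.7 for Zbtb24, 16.4 for Dnmt3a and 6.09 for Dnmt3b, since the deposited FPKM sum to 188740, 206902 and 223767. With reads divided by the length of a single transcript, chosen after seeing the data, the mean was 40.6 FPKM for Dnmt1, 5.76 for Dnmt3a, 6.24 for Zbtb24 and 17.9 for Cdca7, and the Dnmt3a to Dnmt3b ratio was 3.74.

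The count of genes with a spread of at least 2-fold, 2 as reported, was 4 at a fold of 1.5, 1 at a fold of 3, 4 relative to S-phase genes and 7 relative to mitotic genes, the last 2 settings chosen after seeing the data. Of all genes, 36.9% and 85.7% spread at least 2-fold in those 2 settings, against 34.4% as deposited. Near the folds of 1.5 and 3, 36.8% of all genes had a fold below that of Uhrf1 (1.495) and 82.9% below that of Hells (2.93). The count ran from 1 to 2 with a tumor left out, being 1 without tumor 1 and 1 without tumor 2. A fold over 2 tumors cannot exceed that over all 3, and the shares of all genes with a tumor left out were not computed. A lower count there is therefore not particular to these genes. The count above 1 FPKM, 8 as reported, was 5 at a threshold of 5 FPKM. Around that threshold, 77.8% of all genes in the table had a mean below that of Zbtb24 (3.46 FPKM) and 85.7% below that of Hells (6.70 FPKM). With a tumor left out, the mean of Dnmt3a ran from 2.15 to 4.14 FPKM, that of Hells from 4.44 to 8.13 FPKM and the Dnmt3a to Dnmt3b ratio from 2.00 to 3.15. The mean of Dnmt3l was not varied, since it had at most 1 read per tumor.

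No paired analysis was possible because the replicate numbers are shared only with bisulfite samples that were not analysed here. Of the 8 genes with a mean of at least 1 FPKM, the relative counting error was widest for Dnmt3b, which rests on 133 to 153 reads per tumor.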

Other observations

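The supply of the methyl donor S-adenosylmethionine was described by 11 genes. Of these, 9 had a mean of at least 1 FPKM, against 32.7% of all genes in the table. Mat2a, the catalytic subunit of the S-adenosylmethionine synthetase of most tissues, was the most abundant with 53.5, 32.8 and 31.6 FPKM in tumors 1, 2 and 3, while its liver paralog Mat1a had 1 read, in tumor 2. Of the 9 genes, 6 were highest in tumor 1 and 3 in tumor 2, against 4 and 3, with 2 in tumor 3, after scaling by median-of-ratios factors. The shares of all genes highest in tumors 1, 2 and 3 are 50.6%, 33.7% and 15.7% as deposited and 39.0%, 37.3% and 23.7% after that scaling. Of the 11197 genes with a mean of at least 1 FPKM, 4286 were lowest in tumor 2 as deposited, Hells among them. Ahcyl2 had 7.05, 1.23 and 2.42 FPKM, a spread of 5.74-fold, and was also lowest in tumor 2. It was named after its values were seen.

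E2f1 and E2f2, members of the factor family whose words were searched in the promoters, varied little among the tumors. E2f1 had 5.39, 5.47 and 5.19 FPKM and E2f2 had 13.6, 11.4 and 12.4 FPKM. Both were singled out after their values were seen. Of the genes with an E2F word in a promoter window, Dnmt1 and Uhrf1 lay 0.06 apart and Hells lay 1.15 from each of them. Cdca7 lay 0.44 from Dnmt1 and from Uhrf1 and 0.71 from Hells. Whether E2F factors had a part in these levels was not tested. Cd22 went against the other B-cell genes, with 5.84, 36.5 and 13.9 FPKM and its highest value in tumor 2. It was named after its values were seen.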
